A study of Sus scrofa with 6 samples.

Results

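Of the 4046 lncRNA transcripts assembled from pig skeletal muscle, 1262 (31.2%) were unspliced, intergenic and lay close to another intergenic transcript. The rule that chose them uses the annotation columns of the deposited table. Each has class code u (no overlap with an annotated gene), 1 exon, a length over 400 bp and up to 5000 bp, a gene identifier that no other transcript carries, and another class u transcript at a gap of at most 10000 bp on the same chromosome. MSTRG.9572.1 and MSTRG.9573.1, an abundant pair of neighbors, were left out by name. The members make up 38.1% of the 3310 class u transcripts. Of the 2212 transcripts that meet the same limits on class, exon number, length and gene identifier, 57.1% had such a neighbor, and the other 950 are called isolated here.

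The libraries came from female Qingyu pigs (Qinyu Pig in the labels) at 178 days of age, a native Chinese breed with no genetic change or drug treatment named. The longissimus dorsi muscle (LDM), a glycolytic muscle, and the psoas major muscle (PMM), an oxidative muscle, were each sequenced in 3 libraries of rRNA-depleted RNA. Per the methods, both muscles were taken from the same group of pigs, and samples chosen at random from it were sequenced. The LDM and PMM libraries may therefore share pigs. No label ties a library to a pig, and the p-values below therefore measure the spread between these libraries. Tests of LDM against PMM do not pair the libraries unless a block is named. The question asked of the members was whether neighbors vary together across the 6 libraries, and whether they differ between the muscles.

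Intergenic transcripts of low coding potential include long noncoding RNAs with promoters of their own, RNA from enhancers, RNA that runs on past the end of a gene, and pieces of longer transcripts that an assembler did not join. Unspliced transcripts are the hardest of these to delimit, because no splice junction fixes their strand or their ends. Glycolytic fibers obtain energy mainly by breaking down glycogen and glucose and tire quickly, while oxidative fibers depend on mitochondria and sustain long work. No function is annotated for any member, so the members are named by their transcript identifiers. The table holds noncoding transcripts only, and the muscle labels were therefore not checked against fiber-type genes.

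The members were spread over all 19 chromosomes in the table, and the share of mid-length unspliced transcripts with a neighbor ran from 43.6% on chromosome 12 to 69.0% on chromosome 15. Their lengths ran up to 4998 bp with a median of 1388.5 bp, beside a median of 1184.5 bp among the isolated transcripts. The median CPC score, in which lower values mean lower coding potential, was -1.17 for members and -1.16 for isolated transcripts. The median CNCI score, read the same way, was -0.0348 and -0.0313. Members lay on the plus strand in 624 cases and on the minus strand in 638. The nearest neighbor was at a median of 2016.5 bp. The member nearest to the limit was MSTRG.7829.1, with a gap of 9986 bp, and the first transcript beyond it was MSTRG.13795.1, with 10005 bp.

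Neighboring transcripts lay mostly on the same strand. Of the 1405 pairs of a member with a class u transcript within 10000 bp, 1295 (92.2%) had both transcripts on one strand, and 110 were on opposite strands. The partner was another member in 831 pairs, of which 92.8% shared a strand. It was a single-exon transcript over 5000 bp in 224 pairs (94.6%), a single-exon transcript of up to 400 bp in 261 pairs (93.1%) and a spliced transcript in 49 pairs (67.3%). The same-strand share fell with distance. It was 91.8% at gaps of up to 1000 bp, 93.4% at 1000 to 5000 bp, 91.1% at 5000 to 10000 bp, 90.5% at 10000 to 20000 bp, 85.7% at 20000 to 50000 bp, 73.0% at 50000 to 100000 bp and 56.7% at 100000 to 1000000 bp, and it was 49.9% beyond that. Only 75 of the 1262 members had neighbors on the opposite strand alone.

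Linking class u transcripts at gaps of up to 10000 bp gave 569 chains that hold at least 1 member. Most were short, with 320 chains of 2 transcripts, 131 of 3 and 118 of 4 or more. A single strand held all transcripts of 499 chains (87.7%). The median span of a chain was 10278 bp.

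The libraries differed in how they listed the members. A member was above 0 FPKM (fragments per kilobase of transcript, scaled to the mapped fragments of the library, the authors' unit of level) in 698, 879 and 656 cases in LDM replicates 1, 2 and 3, and in 627, 597 and 565 cases in PMM replicates 1, 2 and 3. LDM replicate 2 stood apart. The median of its listed members was 1.48 FPKM, while the medians of the other 5 libraries lay between 0.304 and 1.17 FPKM, with the lowest in LDM replicate 3. It also held the highest value of 665 members (52.7%), against 9 in LDM replicate 3 and 38 in PMM replicate 3. Among chains, 320 of 569 (56.2%) had their highest mean FPKM in LDM replicate 2. The listed members spanned a narrow range of coverage there, with a ratio of the upper to the lower quartile of 1.37, against 2.44 to 3.23 elsewhere. The gigabases of aligned sequence behind the FPKM values were alike, at 7.24 to 8.78 in the 6 libraries, and LDM replicate 2 had the fewest. The height of LDM replicate 2 was not particular to the members. Of the isolated transcripts, 65.5% were above 0 FPKM in LDM replicate 2, against 44.8% to 58.9% in the other libraries. Their mean log2(FPKM + 1) was 0.905 there, against 0.384 to 0.666 elsewhere. The part of LDM replicate 2 in the results below is given by values with and without it.

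**Figure D1:**
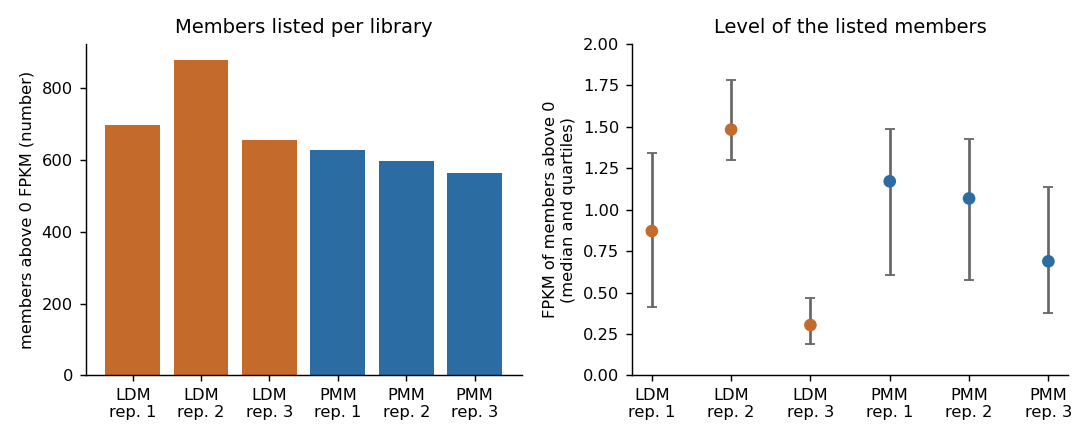
Left, number of the 1262 members above 0 FPKM in each library; right, median (point) and quartiles (bar) of the FPKM of those members, with LDM in orange and PMM in blue. LDM replicate 2 lists 879 members at a median of 1.48 FPKM, and LDM replicate 3 lists 656 at a median of 0.304 FPKM.

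Few members were listed in every library. Above 0 FPKM in all 6 libraries were 157 members (12.4%), while 236 (18.7%) were above 0 in 1 library only. Long members were listed more widely. Of members over 2000 bp, 11.9% were above 0 in 1 library only, against 23.0% of those of up to 1000 bp. Zeros made up 46.9% of all values of members. For 82.8% of the zeros, at least 10 reads of 150 bases would have been present if the member had been at the lowest level it showed in any library that listed it. The cause of the zeros was not tested, and a value of 0 is called listed at 0 here.

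The members were at low levels. The median of their mean FPKM over the 6 libraries was 0.403, and 133 members had a mean of at least 1 FPKM and 13 of at least 5 FPKM. In each library, clustered members were compared with the isolated transcripts. The share above 0 FPKM was lower among members by 1.43 percentage points on average (a difference of -1.43 ± 3.64, SD, n = 6 libraries), lower in 5 of 6 libraries (exact sign-flip permutation test, two-sided, p = 0.406). The mean log2(FPKM + 1) was lower among members by 0.09 on the log2 scale (-0.09 ± 0.08, SD, n = 6 libraries; exact sign-flip permutation test, two-sided, p = 0.0625). It was lower in 5 of 6 libraries, and the exception was LDM replicate 2, with a difference of 0.05. Neither difference passed 0.05, and the smallest p this design allows is 0.03125.

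MSTRG.13535.1 (chr4:129664175-129665948, plus strand) was the most abundant member. Its levels were 93.3, 142 and 113 FPKM in LDM replicates 1, 2 and 3 and 84.8, 114 and 102 FPKM in PMM replicates 1, 2 and 3. The muscles overlapped, and the difference of 0.20 ± 0.33 (SE, n = 3 per muscle) in log2(FPKM + 1), LDM minus PMM, did not pass the limma test (adjusted p = 0.874). MSTRG.9569.1 (chr2:5939384-5940457, minus strand) followed at 20.5, 41.5 and 15.3 FPKM in LDM and 27.3, 17.3 and 20.6 FPKM in PMM. MSTRG.12219.1 (chr3:103373072-103374716, plus strand) had 6.44, 18.9 and 7.02 FPKM in LDM and 10.2, 9.19 and 8.59 FPKM in PMM. In both, LDM replicate 2 was the highest library and the other LDM values overlapped those of PMM or lay below them.

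The other abundant members were MSTRG.19566.1 (chrX:67153170-67154091) and MSTRG.19567.1 (chrX:67154465-67156193), which lie on the minus strand of the X chromosome within the span of the spliced class u transcript MSTRG.19565.1. MSTRG.19566.1 had 10.6, 22.2 and 11.3 FPKM in LDM and 9.72, 12.4 and 10.95 FPKM in PMM. MSTRG.19567.1 had 7.93, 16.1 and 7.34 FPKM in LDM and 7.20, 10.4 and 7.15 FPKM in PMM. In both neighbors replicate 2 was the highest library of each muscle. Without LDM replicate 2 the muscle differences of these 4 members (MSTRG.9569.1, MSTRG.12219.1, MSTRG.19566.1 and MSTRG.19567.1) changed sign, and none passed the test with or without it. Whether the reads of a spliced transcript and of an unspliced one inside it were split correctly was not tested.

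Every LDM library listed more members than every PMM library, while the summed levels of the muscles overlapped. LDM libraries listed 744 ± 118 members above 0 FPKM and PMM libraries 596 ± 31.0 (SD, n = 3), with no overlap (p = 0.1 in a two-sided exact permutation test, the lowest that 3 against 3 libraries can give, so this test could not pass 0.05). Their levels summed to 993 ± 650 FPKM in LDM libraries and to 791 ± 131 FPKM in PMM libraries (SD, n = 3; exact permutation test, p = 0.9). Averaged over the members, log2(FPKM + 1) was 0.57 ± 0.35 for LDM and 0.46 ± 0.08 for PMM (SD, n = 3; exact permutation test, p = 0.8). For the sum and the mean log2, the direction rested on LDM replicate 2, since without it LDM was below PMM by 156 FPKM (a difference of -156) and by 0.08 in mean log2 (-0.08). The median log2(FPKM + 1) was 0.51 ± 0.61 in LDM and was 0 in all PMM libraries (SD, n = 3; exact permutation test, p = 0.1). In a bulk sample, fewer cells of a type and less RNA per cell cannot be told apart.

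Single members could be compared where at least 1 of the muscles had all its 3 libraries above 0 FPKM. This held for 439 members (34.8%; 36.0% of the isolated transcripts), of which 182 were above 0 in all LDM libraries but not in all PMM libraries and 100 the reverse. A member that passed this limit through 1 muscle alone was listed at 0 in at least 1 library of the other. The limit thus uses the values that are compared, so counts over the tested members are a description. With limma on log2(FPKM + 1), adjusted over the 1721 transcripts of the table that met the limit, 0 members passed an adjusted p of 0.05 in either direction. Over all tested transcripts, 0.0581% passed higher in LDM and 0.116% higher in PMM. The smallest adjusted p of a member was 0.373. At an unadjusted p under 0.05, 15 members were higher in LDM (3.42% of those tested, beside 3.14% of all) and 17 in PMM (3.87%, beside 4.71% of all). With a log2 difference of at least 1 added, 4 members were higher in LDM (0.911%, beside 1.34% of all) and 6 in PMM (1.37%, beside 2.44% of all). These shares were near or below those of the whole table. With the FPKM of each library rescaled by median-of-ratios factors, the split was 5 higher in LDM and 2 higher in PMM. The counts moved with single libraries. Higher in LDM were 2 members without LDM replicate 2 or without PMM replicate 3, and 46 without LDM replicate 3. Higher in PMM were 6 without LDM replicate 3 and 19 without LDM replicate 2. The number of members tested changed too, to 506 without LDM replicate 2 and 568 without LDM replicate 3. Shares over all transcripts are not given for these fits or the rescaled values, so these counts are not read as a trait of the members.

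The muscles did not overlap for 30 members higher in LDM (6.83%, beside 5.87% of all transcripts tested) and for 36 higher in PMM (8.20%, beside 9.01% of all). All PMM libraries were listed at 0 for 27 of the former, and all LDM libraries for 3 of the latter. The median log2 difference of the tested members was 0.13, beside -0.01 for all transcripts tested, and it was -0.06, beside -0.12, without LDM replicate 2. When the replicate number was added to the limma fit as a block, 5 members passed an adjusted p of 0.05: MSTRG.19153.1 was higher in LDM (1.10% of all transcripts tested passed in this direction), and MSTRG.6503.1, MSTRG.15862.1, MSTRG.10836.1 and MSTRG.2427.1 were higher in PMM (1.69% of all). That fit replaced each transcript's own spread by the trend over all transcripts, and the pairing behind it is an assumption. Joining class u transcripts of the same chain and strand into units gave 612 units with members, of which 436 could be tested, and 0 of these passed in limma without the block. At an unadjusted p under 0.05, 9 of these units passed (2.06%, beside 6.39% of all units and transcripts tested).

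Among members with a mean of at least 1 FPKM in the higher muscle, the 6 with the smallest unadjusted p in the PMM direction included a pair of neighbors. MSTRG.10836.1 (chr2:142154419-142157059, plus strand) was at 1.03, 0.668 and 1.12 FPKM in LDM, against 3.66, 3.01 and 3.10 FPKM in PMM, and the muscles did not overlap. Its log2(FPKM + 1) difference, LDM minus PMM, was -1.14 ± 0.35 (SE, n = 3 per muscle; limma, unadjusted p = 0.00437, adjusted p = 0.417, adjusted p = 0.0391 with the block). MSTRG.10835.1 (chr2:142143116-142145055), on the same strand at a gap of 9363 bp, had 0, 2.02 and 1.30 FPKM in LDM and 3.34, 3.09 and 2.54 FPKM in PMM. It too was above every LDM library in every PMM library, with a difference of -1.06 ± 0.41 (SE, n = 3 per muscle; limma, unadjusted p = 0.0192, adjusted p = 0.541). Across the 6 libraries the pair had a Pearson r of 0.66.

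MSTRG.2427.1 (chr10:45661370-45663395, plus strand) was at 1.51, 2.47 and 0.867 FPKM in LDM, against 5.0, 5.70 and 3.34 FPKM in PMM. The muscles did not overlap, and the difference was -1.14 ± 0.37 (SE, n = 3 per muscle; limma, unadjusted p = 0.00565, adjusted p = 0.442, adjusted p = 0.0268 with the block). MSTRG.6503.1 (chr14:95003005-95004893, plus strand) was at 1.70, 0 and 0 FPKM in LDM, against 2.99, 3.03 and 2.20 FPKM in PMM (limma, difference -1.42, unadjusted p = 0.00325, adjusted p = 0.373, and 0.00582 with the block). Its neighbors did not share the pattern. MSTRG.6504.1, at 2849 bp on the same strand, had 0, 1.63 and 0.285 FPKM in LDM and 0, 0 and 0.985 FPKM in PMM.

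MSTRG.15862.1 (chr6:93282382-93283383, minus strand) had 0, 0 and 0.153 FPKM in LDM libraries and reached 2.03, 1.77 and 0.876 FPKM in PMM, with no overlap. Its neighbor MSTRG.15856.1, at a gap of 535 bp on the same strand, was at 1.75, 0.980 and 0.155 FPKM in LDM, against 0, 1.31 and 0 FPKM in PMM. The pair had a Pearson r of -0.37. In the highest library of each, the other was listed at 0, though both were high in PMM replicate 2. MSTRG.7622.1 (chr15:127162067-127163291, minus strand), the last of these 6, had 0, 0 and 0.570 FPKM in LDM and 1.06, 1.69 and 1.67 FPKM in PMM. With MSTRG.7623.1, at 295 bp on the same strand, its r was -0.22.

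In the LDM direction, MSTRG.19153.1 (chr9:143685451-143689972, plus strand) had the largest difference of these 12 members, 1.69 ± 0.61 (SE, n = 3 per muscle; limma, unadjusted p = 0.0125, adjusted p = 0.490, adjusted p = 0.000504 with the block). Its levels were 0.296, 14.1 and 1.28 FPKM in LDM and 0, 0.335 and 0 FPKM in PMM, so LDM replicate 1 lay below PMM replicate 2, and the difference was 0.64 without LDM replicate 2. The neighbor MSTRG.19151.1, a single-exon transcript of 10460 bp on the same strand at a gap of 4978 bp, had the same peak. It was at 0.519, 16.6 and 1.67 FPKM in LDM, against 1.17, 0.635 and 0.609 FPKM in PMM, and the r of the pair was 0.97.

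MSTRG.16972.1 (chr7:64419092-64420556, plus strand) was at 1.20, 2.06 and 0.431 FPKM in LDM, and MSTRG.15549.1 (chr6:73591358-73593717, minus strand) was at 1.18, 1.65 and 0.521 FPKM. Both were listed at 0 in all PMM libraries, as were MSTRG.9925.1 (chr2:45918128-45919892) with 2.24, 0.458 and 0.522 FPKM in LDM and MSTRG.8257.1 (chr16:72493801-72494644) with 0.290, 2.81 and 0.323 FPKM. MSTRG.5604.1 (chr13:211252885-211253695, plus strand) had 1.49, 1.94 and 0.590 FPKM in LDM and 0, 0.369 and 0.0235 FPKM in PMM, and was the only one of these 5 above 0 in PMM. The neighbors were in part listed at 0 as well. MSTRG.16971.1, next to MSTRG.16972.1, was above 0 in 1 PMM library, at 0.810 FPKM in replicate 1, and MSTRG.9924.1, next to MSTRG.9925.1, in 1 as well, at 0.534 FPKM in replicate 2. MSTRG.8258.1, at 280 bp from MSTRG.8257.1 on the same strand, was at 0.991, 3.64 and 0.484 FPKM in LDM, against 0.833, 2.42 and 1.35 FPKM in PMM. By contrast with that neighbor, MSTRG.15550.1, at 909 bp from MSTRG.15549.1, was at 1.83, 0 and 0 FPKM in LDM, against 0, 1.41 and 0 FPKM in PMM. The 12 members form 16 distinct pairs with neighbors, in 8 of which the neighbor was tested too, and 3 of these 8 had the same sign of difference.

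**Figure D2:**
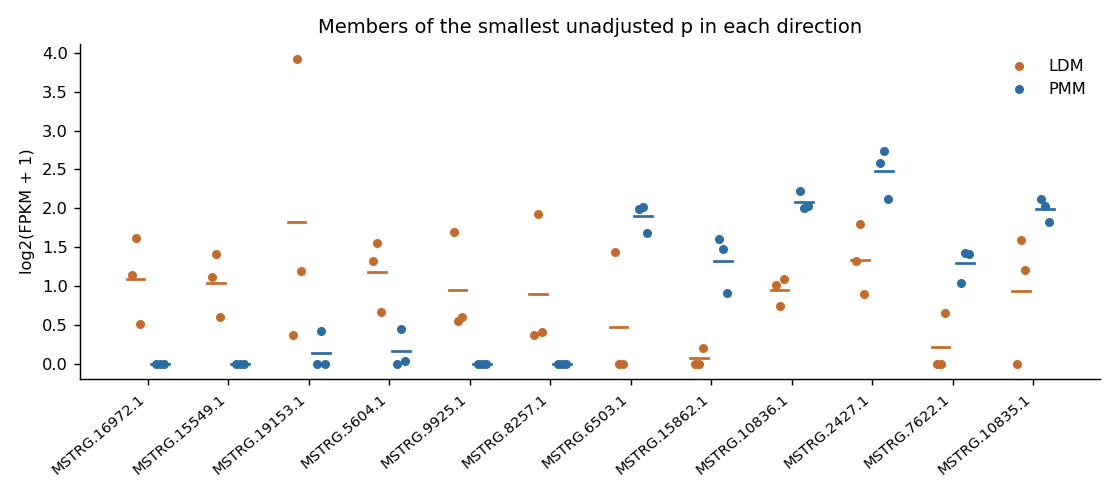
The 6 members of smallest unadjusted p in each direction among those with a mean of at least 1 FPKM in the higher muscle, as log2(FPKM + 1) in each library (points; LDM orange, PMM blue) with the mean of each muscle (line). MSTRG.10836.1 and MSTRG.2427.1 are above 0 in all 6 libraries without overlap of the muscles, while the height of MSTRG.19153.1 in LDM comes from LDM replicate 2 at 14.1 FPKM.

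Neighbors varied together across the libraries more closely than transcripts on different chromosomes did. For 562 neighbor pairs, made of 743 transcripts of which 565 are members, both transcripts were above 0 FPKM in at least 3 libraries. The median Pearson r of log2(FPKM + 1) over the 6 libraries was 0.613 in these pairs and 0.290 in the 257656 pairs of the same transcripts that lie on different chromosomes. An r above 0.8 was found in 32.6% of neighbor pairs and in 10.6% of pairs on different chromosomes. These are descriptions over 6 points, and pairs that share a transcript or a chain are not independent. All pairs share the libraries and their differences in depth and level, which is why the pairs on different chromosomes are the standard here rather than 0. With 1 value for each of the 286 chains these pairs come from, the median r was 0.570.

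Within 10000 bp, r was higher on the same strand. Same-strand neighbors had a median r of 0.647 (504 pairs) and opposite-strand neighbors one of 0.256 (58 pairs). Where both partners were members, the medians were closer, at 0.678 (284 pairs) and 0.490 (29 pairs). A spliced partner was in 10 of the 58 opposite-strand pairs and in 23 of the 504 same-strand pairs. Both transcripts of a same-strand pair were highest in the same library in 64.3% of pairs. This held for 36.2% of opposite-strand pairs and 36.3% of pairs on different chromosomes. Over all pairs, whatever the number of libraries above 0 FPKM, the shares were 54.1%, 38.2% and 32.9%. With LDM replicate 2 left out, they were 37.5%, 25.5% and 24.7%. In all 18 other settings tried, the same-strand median was above both the opposite-strand median and that of different chromosomes. The opposite-strand median was above that of different chromosomes in 12 of the 18, among them pairs above 0 FPKM in all 6 libraries (0.643, beside 0.443), so no order between these can be read.

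**Figure D3:**
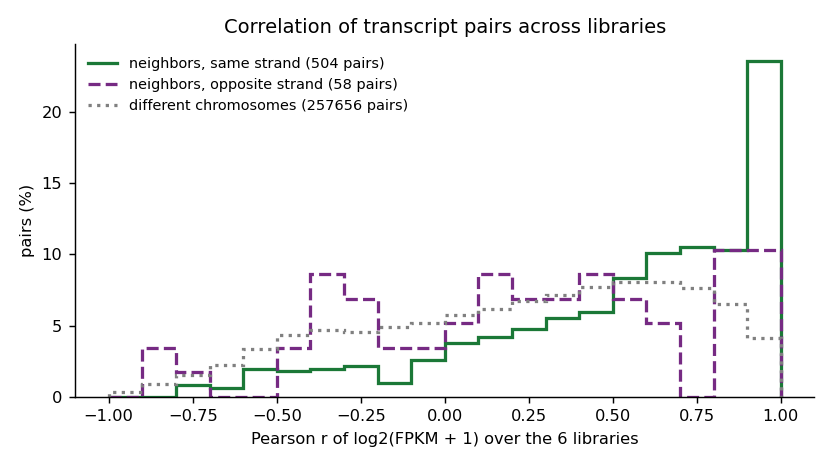
Share of transcript pairs by Pearson r of log2(FPKM + 1) over the 6 libraries, in steps of 0.1, for same-strand neighbors, opposite-strand neighbors and pairs of the same transcripts on different chromosomes. An r above 0.8 is reached by 33.9% of same-strand neighbors, 20.7% of opposite-strand neighbors and 10.6% of pairs on different chromosomes.

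The relation was as strong within the muscles. After the mean of each muscle had been subtracted, the median r was 0.717 for same-strand neighbors, 0.30 for opposite-strand neighbors and 0.370 for different chromosomes. The values were lower without LDM replicate 2. For the same pairs without that library, the medians over 5 libraries were 0.417, 0.136 and 0.0787. With Spearman's rho, which does not weight the size of a peak, they were 0.419, 0.270 and 0.185. In the 67 neighbor pairs with no value at 0, of which 53 were on the same strand, the median r was 0.884, beside 0.443 for different chromosomes.

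Same-strand pairs up to 50000 bp apart had similar r when all libraries were used. Their median was 0.635 at gaps of up to 1000 bp, 0.646 at 1000 to 5000 bp, 0.659 at 5000 to 10000 bp, 0.629 at 10000 to 20000 bp and 0.702 at 20000 to 50000 bp. It was 0.543 at 50000 to 100000 bp, 0.398 at 100000 to 1000000 bp and 0.254 beyond that, where it no longer exceeded the value for different chromosomes. Without LDM replicate 2 the medians of the first 5 bins were 0.435, 0.403, 0.419, 0.383 and 0.320, and the bin of 20000 to 50000 bp was then the lowest of them. The lower r of opposite-strand pairs was not seen at larger gaps. Their median was 0.488 (16 pairs), 0.281 (15 pairs) and 0.220 (27 pairs) in the 3 bins within 10000 bp, then 0.698 at 10000 to 20000 bp (10 pairs), 0.773 at 20000 to 50000 bp (50 pairs from 21 chains), 0.539 at 50000 to 100000 bp (55 pairs) and 0.573 at 100000 to 1000000 bp (298 pairs from 87 chains). In these 4 bins the opposite-strand median was above or close to that of the same strand.

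**Figure D4:**
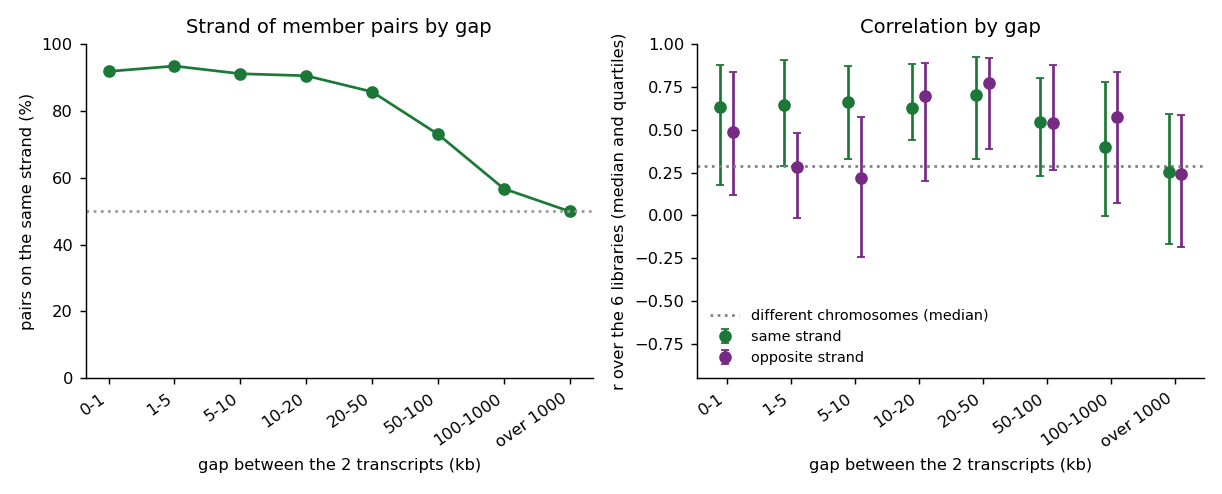
Left, share of pairs of a member with a class u transcript that lie on the same strand, by the gap between them in kb (the dotted line marks 50%); right, median (point) and quartiles (bar) of the Pearson r over the 6 libraries by gap, same strand in green, opposite strand in purple, with the median of pairs on different chromosomes as a dotted line. The same-strand share falls from 91.8% at the shortest gaps to 49.9% at the longest, and the same-strand median r from 0.635 to 0.254.

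The values also differed by the kind of neighbor. Pairs of 2 members had a median r of 0.660 (313 pairs), and members with a single-exon transcript over 5000 bp had 0.624 (118 pairs). With single-exon transcripts of up to 400 bp the median was 0.475 (71 pairs), and with spliced transcripts it was 0.365 (33 pairs). The 10 opposite-strand pairs with a spliced transcript had a median of -0.259. The level was closer between same-strand neighbors and less close between opposite-strand neighbors than between transcripts on different chromosomes. Mean log2(FPKM + 1) differed by a median of 0.19 within same-strand pairs, by 0.38 within opposite-strand pairs and by 0.24 between different chromosomes, over all 1405 neighbor pairs.

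Whether a transcript was listed at all was barely shared. Neighbors were both above 0 or both at 0 in 57.4% of the comparisons within a library for same-strand pairs and in 57.1% for opposite-strand pairs, beside 51.6% for different chromosomes. All 6 libraries matched in 7.72%, 14.5% and 4.26% of pairs. The sign of the muscle difference was the same in 132 of 207 same-strand pairs with both transcripts tested (63.8%), in 16 of 32 opposite-strand pairs (50%) and in 51.2% of pairs on different chromosomes.

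Neighbor pairs above 0 FPKM in all 6 libraries were then ordered by r, and the extremes are given as a description, since r chose them. The highest r was in an opposite-strand pair. MSTRG.5401.1 (chr13:154861258-154863607, plus strand) was at 1.55, 4.57 and 1.34 FPKM in LDM, against 2.25, 4.30 and 2.78 FPKM in PMM. MSTRG.5402.1 (chr13:154869305-154872020, minus strand), 5697 bp away, was at 1.72, 5.19 and 1.51 FPKM in LDM, against 2.76, 4.45 and 3.09 FPKM in PMM. Their r was 0.994 and all 6 libraries stood in the same order, with both replicate 2 libraries at the top.

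The next pairs were all on the same strand. MSTRG.2433.1 and MSTRG.2435.1 on chromosome 10, at a gap of 2668 bp, had an r of 0.988. The r was also 0.988 between MSTRG.18562.1 (chr9:46507360-46510774) and the single-exon MSTRG.18565.1, a transcript of 16591 bp that begins 3062 bp away. MSTRG.18562.1 was at 2.82, 3.81 and 0.614 FPKM in LDM, against 2.25, 3.57 and 1.89 FPKM in PMM, and its neighbor was at 3.74, 5.0 and 0.882 FPKM in LDM, against 2.99, 3.99 and 2.11 FPKM in PMM. In both transcripts LDM replicate 3 was lowest by far. MSTRG.236.1 (chr1:33941203-33941845, minus strand) and MSTRG.238.1, of 25254 bp, had an r of 0.986 at a gap of 7745 bp with a different order of libraries. MSTRG.236.1 was highest in LDM replicate 1, at 2.75 FPKM against 0.385 to 1.8 FPKM in the others. MSTRG.238.1 was highest there as well, at 5.44 FPKM against 1.14 to 3.08 FPKM. The remaining pair of the 5, MSTRG.2123.1 and MSTRG.2127.1, had an r of 0.991, which was 0.783 without LDM replicate 2.

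The lowest r belonged to opposite-strand pairs. The spliced MSTRG.5082.1 (chr13:108850474-108853883, minus strand) was at 1.70, 2.40 and 2.73 FPKM in LDM, against 1.52, 2.38 and 2.64 FPKM in PMM. Its neighbor MSTRG.5081.1 (chr13:108862376-108863044, plus strand) was at 0.932, 0.496 and 0.280 FPKM in LDM, against 1.48, 1.37 and 1.42 FPKM in PMM, with an r of -0.43. The member was above every LDM value in all PMM libraries, and the spliced transcript overlapped between the muscles. MSTRG.5084.1 (chr13:108860784-108861647), next to them, had an r of -0.39 with the same spliced transcript. MSTRG.1771.1 and MSTRG.1773.1 (chr1:283250440-283252275 and chr1:283257407-283259031) had one of -0.33, which was 0.01 without LDM replicate 2.

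At the smallest gaps, members lay inside the span of spliced transcripts. MSTRG.2857.1 (chr11:18161651-18162765, minus strand) lies within MSTRG.2856.1 and MSTRG.2856.2 of the same strand. It had 0, 0.827 and 0.416 FPKM in LDM and 1.90, 1.0 and 1.47 FPKM in PMM, and r was 0.811 with MSTRG.2856.1 and 0.821 with MSTRG.2856.2. The levels of MSTRG.2856.2 were very low, at 0.0095, 0.0477 and 0.0339 FPKM in LDM and 0.230, 0.0686 and 0.0779 FPKM in PMM. MSTRG.18462.1 (chr9:30571597-30572503, plus strand), inside MSTRG.18460.3, had an r of 0.690 that was 0.12 without LDM replicate 2, where the member stood at 6.39 FPKM.

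On opposite strands, MSTRG.5410.1 (chr13:154909288-154914162, minus strand) lies within the spans of 2 isoforms on the plus strand. It was at 1.58, 5.57 and 1.66 FPKM in LDM, against 2.75, 4.61 and 3.72 FPKM in PMM. Its r was 0.911 with MSTRG.5409.1 and 0.182 with MSTRG.5409.2. MSTRG.17371.1 (chr7:122124558-122126329, plus strand) and the spliced MSTRG.17372.1 inside it had an r of 0.46. The library method degrades the second strand, but the alignment is stated to have used default settings and the strand setting of the quantification is not given in the sources used here, so reads of overlapping transcripts on opposite strands may not be told apart.

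The chain with the most members lies at chr10:8867508-8939098 on the minus strand. It holds 16 transcripts, 15 of them members, and its transcripts cover 41.4% of its 71591 bp. LDM replicate 2 was the highest library for 14 of the 15 members, with values of 0.730 to 4.11 FPKM. In the other 5 libraries the median of the members was 0.0916 FPKM and the highest value 2.64 FPKM. MSTRG.2114.1 (chr10:8876138-8878807), for example, was at 0.00707, 2.51 and 0 FPKM in LDM, against 0.229, 0.209 and 0.228 FPKM in PMM. MSTRG.2124.1 (chr10:8911433-8912130) was at 0, 3.68 and 0 FPKM in LDM, against 0, 0.0857 and 0.164 FPKM in PMM. The median r over the 91 pairs of the chain that could be compared was 0.966, and it was 0.195 without LDM replicate 2.

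The last 2 members of this chain departed from the others. MSTRG.2130.1 (chr10:8923394-8927940) was at 0.291, 4.11 and 0.833 FPKM in LDM, against 2.64, 1.14 and 1.60 FPKM in PMM. MSTRG.2131.1 (chr10:8936335-8939098) was at 0, 0.730 and 0.402 FPKM in LDM, against 1.29, 0 and 0.883 FPKM in PMM, and its highest library was PMM replicate 1. They were the only members of the chain with a higher mean in PMM than in LDM, and the muscles overlapped for both.

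The chain at chr10:45661370-45694365 has 8 transcripts, 7 of them members, on both strands over 32996 bp, of which 55.9% is covered. Of the 7 members, 6 had a higher mean in PMM and 3 had every PMM library above every LDM library. MSTRG.2427.1, described above, is its only plus-strand transcript. Among the minus-strand members, MSTRG.2435.1 (chr10:45690641-45694365) was at 0.541, 1.29 and 0.288 FPKM in LDM, against 1.74, 2.34 and 1.47 FPKM in PMM. MSTRG.2433.1 (chr10:45685319-45687972) was at 0.320, 0.944 and 0.212 FPKM in LDM, against 1.03, 1.31 and 0.978 FPKM in PMM. The muscles did not overlap in either, but neither passed the limma test. The difference was -0.77 ± 0.38 for MSTRG.2435.1 (SE, n = 3 per muscle, limma, adjusted p = 0.622). It was -0.53 ± 0.38 for MSTRG.2433.1 (SE, n = 3 per muscle, limma, adjusted p = 0.717). MSTRG.2432.1 (chr10:45684506-45685037), 281 bp from MSTRG.2433.1, was listed at 0 in replicate 2 of both muscles, where MSTRG.2433.1 had its highest value of each muscle. The median r over the 28 pairs of the chain was 0.444, and it was 0.531 without LDM replicate 2.

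The chain at chr18:37234885-37272885 on the plus strand has 8 transcripts, 7 of them members, and they cover 32.9% of its 38001 bp. Zeros made up 21 of the 42 values of its members. The median r over the 10 pairs of the chain that could be compared was 0.40, and it was 0.274 without LDM replicate 2. MSTRG.9238.1 (chr18:37271145-37272885) was above 0 in all libraries, at 1.56, 1.26 and 0.50 FPKM in LDM, against 1.27, 1.21 and 1.02 FPKM in PMM. MSTRG.9237.1 (chr18:37266805-37267236), at 3908 bp from it, was at 1.34 FPKM in LDM replicate 2 and listed at 0 elsewhere. MSTRG.9233.1 (chr18:37252980-37253547) was at 1.53 FPKM in LDM replicate 1 and listed at 0 elsewhere, although MSTRG.9234.1, at 474 bp from it, was at 0.996, 0.962 and 0 FPKM in LDM, against 0, 0 and 0.708 FPKM in PMM.

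**Figure D5:**
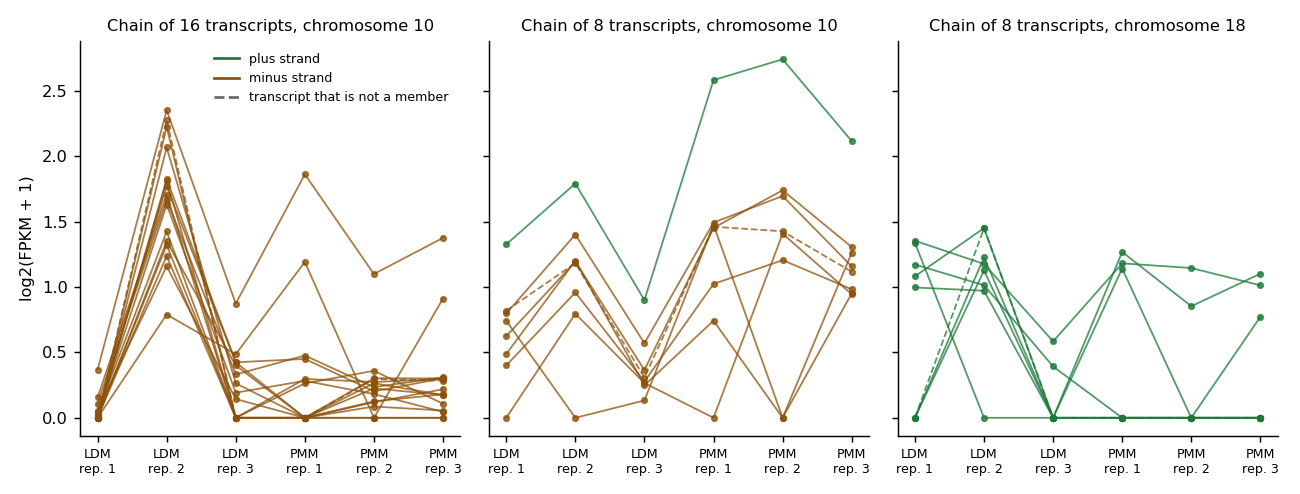
log2(FPKM + 1) in each library for the transcripts of the 3 chains with the most members, 1 line per transcript (plus strand green, minus strand brown, dashed where the transcript is not a member). In the chain of 16, LDM replicate 2 is highest for 14 of 15 members; in the chain of 8 on chromosome 10, 6 of 7 members have the higher mean in PMM; in the chain on chromosome 18, 21 of 42 member values are 0.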

How the data were processed

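RNA depleted of rRNA was sequenced as paired reads of 150 bases in 3 LDM and 3 PMM libraries. Per the methods and the submitters' notes, the authors aligned reads with Tophat to Sscrofa 11.1. The methods name Cufflinks for assembly, while identifiers begin with MSTRG. They also state that transcripts of fewer than 2 exons were removed, yet all 1262 members, taken from the deposited table, have 1 exon. On 18 of 19 chromosomes the positions run past the last gene of an Sscrofa 11.1 gene table, so the build is not settled and positions are printed as deposited. The genome sequence was not used here. The deposited values are the authors' FPKM, the authors' read coverage of each base (a signal, not scaled between libraries) and their CPC and CNCI scores (below -1 and below 0). Coverage divided by FPKM is constant within a library and gave the gigabases. Coverage times length divided by 150 gave the reads, a median of 28.0 to 109 per listed member. Read counts were not analysed here and no count model was run.

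FPKM were compared as log2(FPKM + 1), LDM minus PMM, which understates the differences of low transcripts, with limma 3.58.1 (R 4.3.3; intensity trend, two-sided, Benjamini-Hochberg adjustment over 1721 transcripts). A fitted difference against libraries listed at 0 depends on the pseudocount and is no bound. The limma step was tested on simulated data with known changes. Those data held no values at 0, so that test does not show which differences limma could find among members. Single values of the libraries were compared by exact permutation tests. Correlations have no p. Other tools were matplotlib 3.10.9, scipy 1.17.1, numpy 2.4.6 and pandas 2.3.3, run in Python 3.11.15.

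The muscles share replicate numbers. Between an LDM and a PMM library of equal number, the deviations of the 1721 transcripts tested from the mean of their muscle had an r of 0.239, 0.123 and 0.168. Unequal numbers gave -0.179 to 0.0423. For each transcript the deviations cancel out over the libraries of a muscle, so a positive r in some pairs of libraries forces lower r in others. The low values at unequal numbers are thus no added support for a pairing. The fit with a block treats equal numbers as pairs by assumption, since neither labels nor methods tie a number to a pig.

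Members are named where they passed an adjusted p of 0.05 (none did), were among the 6 per direction of smallest unadjusted p with at least 1 FPKM in the higher muscle, were among the 5 of highest mean FPKM, belong to the 3 chains with the most members, or form the neighbor pairs of highest r (5), lowest r (3) or smallest gap (3 per strand class). Members of these chains not described singly enter the counts. The members, this rule and the alternatives were chosen with earlier results of these data known. The joined units, the level minimum, next transcripts only, members only, medians over chromosomes and 1 value per chain were chosen after seeing the data.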

Additional observations from a re-analysis of the deposited data

How the results depend on the processing

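With the replicate number as a block, 5 of the 439 members tested passed an adjusted p of 0.05 in limma. Of all 1721 transcripts tested, 48 passed in that fit. With a pseudocount of 0.01 instead of 1, 31 of the 439 members passed, beside 78 of all 1721 transcripts. The count of members was 0 under each of the other alternatives, including every fit without 1 library. With a pseudocount of 0.01, the passing members among those named for their smallest unadjusted p were MSTRG.16972.1, MSTRG.15549.1, MSTRG.9925.1 and MSTRG.8257.1. Their adjusted p in limma was 0.0132 to 0.0176, and all were listed at 0 in every PMM library. The cause of the 31 was not tested. The count at an unadjusted p under 0.05 and a log2 difference of at least 1 was 30 higher in LDM and 18 in PMM with a pseudocount of 0.1, and 36 and 17 with 0.01. It was 0 in LDM with at least 1 FPKM required, and 2 in PMM with median-of-ratios scaling, which moved the median log2 difference of all tested transcripts from -0.01 to 0.09 and that of the members from 0.13 to 0.20. Without 1 library in turn it was 2 to 46 in LDM (15 when LDM replicate 1 was dropped, 2 when LDM replicate 2 or PMM replicate 3 was, and 46 when LDM replicate 3 was) and 6 to 19 in PMM (19 without LDM replicate 2 and 16 without PMM replicate 1). Where 1 library was left out, the muscle with fewer libraries was assumed to vary like the other. The number of members tested changed as well, to 93 with at least 1 FPKM required. It was between 499 and 586 in the fits without 1 library. Shares over all transcripts tested are not given for these counts, so their moves are not read as a trait of the members. In the fits without 1 library, the log2 difference ran from -0.26 to 0.44 for MSTRG.9569.1, from -0.42 to 0.29 for MSTRG.12219.1, from -0.0022 to 0.50 for MSTRG.19566.1 and from -0.082 to 0.44 for MSTRG.19567.1, each lowest without LDM replicate 2. In the same way, the difference of LDM from PMM in summed FPKM ran from -156 to 478 and in mean log2(FPKM + 1) from -0.083 to 0.27, with LDM lower only without LDM replicate 2.

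The median r of all, same-strand and opposite-strand neighbors and of different chromosomes was 0.884, 0.909, 0.643 and 0.443 for pairs above 0 FPKM in all 6 libraries. With Spearman's rho it was 0.403 for all, 0.419 on the same strand and 0.185 on different chromosomes. With a pseudocount of 0.1 it was 0.454 for all and 0.498 on the same strand, and with a mean of at least 1 FPKM in both partners 0.786 and 0.802. Median-of-ratios scaling gave 0.105 on opposite strands and 0.155 on different chromosomes. On opposite strands it was 0.488 at gaps of up to 1000 bp, 0.490 between members that do not overlap and 0.365 as a median over chromosomes. Without 1 library in turn, the ranges were 0.471 to 0.744 for all, 0.499 to 0.767 on the same strand, 0.178 to 0.449 on opposite strands and 0.124 to 0.405 on different chromosomes, with pairs chosen anew each time. The differences of clustered from isolated transcripts kept their direction under all alternatives run. Depth limits single values, since a listed member held a median of 28.0 to 109 reads.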
